A study of Mus musculus with 6 samples.

Results

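Alveolar macrophages are the resident phagocytes of the airspace, and the noncycling ones were followed here in single-cell RNA-seq of mouse lung. A barcode was a member if it held at least 200 genes, at most 10% mitochondrial UMIs (unique molecular identifiers, 1 per captured transcript), at least 5 UMIs of Marco, Plet1, Atp6v0d2, Krt79 and Ear1 together and at most 1 UMI of the cell-cycle genes Mki67, Top2a and Cdk1 together. It also had to hold under 5% of its UMIs in S100a8 and S100a9, at most 20 UMIs of C1qa, C1qb and C1qc together, and none of Cd79a or Cd3e. These values chose 7113 of the 61736 barcodes past the quality filters (64428 barcodes deposited). The 15 rule genes are therefore described and not tested.

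The wild-type (WT, spelled C65BL6 in the series text) and Nos1 knockout (KO) mice received 10 mg/kg lipopolysaccharide (LPS) or vehicle into the peritoneum, and the lungs were taken after 4 h. Cells of the digested whole lung were selected for CD45, a surface protein of blood-derived cells, on magnetic beads before 10x Genomics capture. There was 1 vehicle and there were 2 LPS libraries per genotype, and all 6 shared the digestion, the selection and the 4 h interval. Age, sex and the number of animals in a library are not given in the sources used here, nor whether LPS libraries of a genotype came from separate animals, so p-values speak to library-to-library spread alone, and that may be technical. Nos1 encodes neuronal nitric oxide synthase. It gave 0 to 3 UMIs among the members and 0 to 5 in whole libraries, including WT ones, so its counts check no genotype label.

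Members numbered 1774 in the WT vehicle library, 1332 in the KO vehicle library, 977 and 1007 in the WT LPS libraries and 1133 and 890 in the KO LPS libraries. The median depth was lowest in the WT vehicle library (7077 UMIs and 2638.5 genes per member) and highest in the first WT LPS library (15104 UMIs and 3774 genes). Summed over members, a library held 9867323 to 16154688 UMIs. Pairs of libraries shared 20 to 35 barcode sequences, of which at most 1 was a member in both.

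The label was held against the markers. Siglecf, a lectin of alveolar macrophages and eosinophils that the rule did not use, stood at 159, 179, 137, 128, 149 and 137 CPM (UMIs of a gene scaled to a common library total) over the vehicle libraries (WT, KO), then those of WT and of KO after LPS. Epx, which defines eosinophils, had 0 UMIs in every library, and the 4 eosinophil markers summed to at most 0.320 CPM. Among the rule genes, Plet1 stood at 1197 and 1221 CPM in the WT and KO vehicle libraries, 1841 and 1774 in WT LPS and 1388 and 1401 in KO LPS, with Marco, a scavenger receptor, at 233 and 392, then 551 and 578 and 456 and 469. Ear1, a ribonuclease gene, went the other way, at 547 and 604 CPM in the vehicle libraries and 346, 308, 432 and 420.5 in the LPS libraries. At the lower edge of the rule 45 barcodes held exactly 5 UMIs of the 5 markers, 61 otherwise eligible barcodes held 4, and 6828 members held 10 or more. At the upper edge 896 members held 1 UMI of the cell-cycle genes and 6217 held none, against 235 excluded barcodes with 2.

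Alveolar macrophages live on the airway side of the lung, where they clear inhaled particles and take up and break down surfactant lipid. They depend on GM-CSF signalling and on the nuclear receptor PPARγ. LPS is sensed by Tlr4 with Cd14, and the signal passes through Myd88 to NF-kB, which switches on chemokines and cytokines, and through Ticam1 and Ticam2 to interferon and its targets. Socs1, Socs3 and Cish belong to a family of proteins that limit cytokine receptor signalling.

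Promoters of 6 genes that stand for these branches are shown because the values that follow turn on these chemokine and interferon-stimulated genes. They are the 200 bases before the annotated start, 5′ to 3′ on the gene's strand, from RefSeq on GRCm38.p6 (mm10), in lower case throughout. The first 4 belong to chemokines and the last 2 to interferon-stimulated genes.
Cxcl1, chr5:90891045-90891244, plus strand: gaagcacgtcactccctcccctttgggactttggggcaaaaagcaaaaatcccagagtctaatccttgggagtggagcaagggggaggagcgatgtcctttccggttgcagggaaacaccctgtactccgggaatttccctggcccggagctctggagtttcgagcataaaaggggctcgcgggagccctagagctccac
Cxcl2, chr5:90903699-90903898, plus strand: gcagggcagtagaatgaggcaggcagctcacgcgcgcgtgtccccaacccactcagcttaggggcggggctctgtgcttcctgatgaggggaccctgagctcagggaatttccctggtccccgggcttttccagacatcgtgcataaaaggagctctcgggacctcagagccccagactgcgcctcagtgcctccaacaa
Cxcl3, chr5:90785901-90786100, plus strand: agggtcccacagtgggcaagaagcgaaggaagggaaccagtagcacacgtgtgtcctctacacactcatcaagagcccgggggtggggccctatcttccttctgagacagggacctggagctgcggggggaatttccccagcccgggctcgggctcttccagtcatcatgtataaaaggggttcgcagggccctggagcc
Ccl9, chr11:83578637-83578836, minus strand: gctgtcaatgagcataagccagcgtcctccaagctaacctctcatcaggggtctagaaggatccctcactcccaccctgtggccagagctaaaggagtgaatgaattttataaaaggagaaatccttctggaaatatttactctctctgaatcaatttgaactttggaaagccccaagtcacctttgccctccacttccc
Isg15, chr4:156200819-156201018, minus strand: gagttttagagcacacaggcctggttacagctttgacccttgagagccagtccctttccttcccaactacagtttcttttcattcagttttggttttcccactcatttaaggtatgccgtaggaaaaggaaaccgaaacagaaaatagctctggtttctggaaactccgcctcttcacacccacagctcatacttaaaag
Rsad2, chr12:26456453-26456652, minus strand: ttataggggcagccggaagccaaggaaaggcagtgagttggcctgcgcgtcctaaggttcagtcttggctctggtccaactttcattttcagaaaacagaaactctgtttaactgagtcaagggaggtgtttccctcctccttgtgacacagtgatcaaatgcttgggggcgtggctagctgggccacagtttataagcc

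The libraries differed in sex-linked transcripts before any treatment effect could be read. Xist is transcribed from the inactive X chromosome of female cells, and Ddx3y, Eif2s3y, Uty and Kdm5d lie on the Y chromosome. A member with at least 1 UMI of the 4 Y-linked genes and none of Xist is called Y-marked, and one with at least 1 UMI of Xist and none of the 4 is called Xist-marked. In the WT vehicle library 1287 members (72.5%) were Y-marked, 486 (27.4%) held neither kind and 0 were Xist-marked, which allows a share of up to 0.169%. The KO vehicle library held 98.0% Xist-marked members, and the WT LPS libraries 94.8% and 96.9%. The KO LPS libraries held both kinds, with 475 Y-marked (41.9%) and 467 Xist-marked (41.2%) members in the first and 296 (33.3%) and 440 (49.4%) in the second. A further 6.44% and 6.52% of the members there held both marks, with median depths of 20338 and 15552 UMIs against 12755 and 9428 in Y-marked and 14708 and 10604.5 in Xist-marked members.

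**Figure D1:**
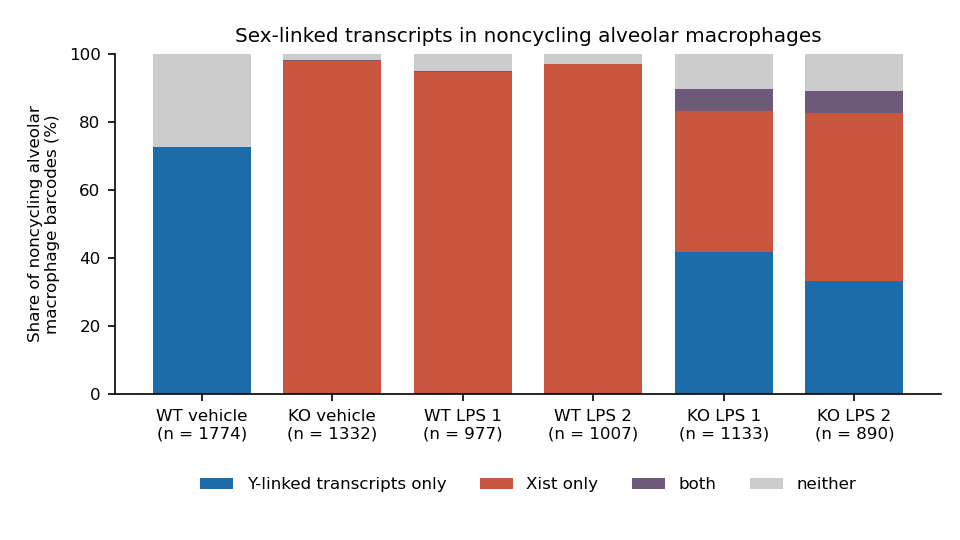
Share of noncycling alveolar macrophage barcodes (y axis, %) by sex-linked transcripts in each library (x axis, with the number of members). The WT vehicle bar is Y-marked or unmarked, the KO vehicle bar and both WT LPS bars are 94.8% to 98.0% Xist-marked, and both KO LPS bars hold Y-marked and Xist-marked members side by side.

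The mixture was not particular to these cells. Y-linked CPM in the KO LPS libraries were 51.1% and 42.2% of the WT vehicle level in members, 48.9% and 46.8% in cycling alveolar macrophages, 48.2% and 47.2% in interstitial macrophages, 35.6% and 36.4% in neutrophils and 17.8% and 17.4% in B cells. The labels do not tie marks to animals, so sex and animal cannot be told apart. In WT, LPS and sex cannot be told apart either, since vehicle members were Y-marked or unmarked and LPS members Xist-marked. In KO, vehicle and LPS members can be compared within the Xist mark. Y-marked KO LPS members can be set against Y-marked WT vehicle members, a comparison in which genotype and LPS cannot be told apart. Y-marked and Xist-marked KO LPS members can be compared inside the same 2 libraries. Counts were therefore summed by mark into 8 sums and fitted together by edgeR's quasi-likelihood test over 12804 genes, alongside the fit of all members over 13220 genes.

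In the fit of all members, LPS against vehicle averaged over genotypes raised 3553 genes (26.9%) and lowered 3243 (24.5%), 51.4% in all, at a Benjamini-Hochberg adjusted p under 0.05. Without correction for composition (plain CPM scaling) the median gene moved by -0.17 on the log2 scale and the split was 2484 higher and 4966 lower. Changes below are log2 fold changes after TMM scaling, which sets that median near 0, ± the standard error that the F statistic implies, and levels are plain CPM. Within WT 3185 genes rose (24.1%) and 2867 fell (21.7%), 45.8% in all, and within KO 2112 rose (16.0%) and 1476 fell (11.2%), with plain CPM splits of 2203 and 4493 and of 1668 and 2633.

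Several genes with large rises are given here, some with intermediate values in the KO LPS libraries. They are not the largest rises, since log2 changes reached 8.68 among the chemokines. Ccl9, a chemokine for myeloid cells, stood at 41.02 and 50.6 CPM in the WT and KO vehicle libraries, 1613 and 1595 in WT LPS and 713 and 749.7 in KO LPS (log2 change 4.74 ± 0.08, adjusted p = 4.91e-09). Every LPS library lay above every vehicle library, and both KO LPS libraries lay well below both WT LPS libraries. Ch25h, which makes 25-hydroxycholesterol, stood at 36.05 and 31.9 CPM in the WT and KO vehicle libraries, 918 and 836 in WT LPS and 428 and 426 in KO LPS (4.34 ± 0.08, adjusted p = 7.78e-09), again with KO LPS below WT LPS. Ier3, an early response gene, stood at 9.29 and 18.3 CPM in the WT and KO vehicle libraries, 383 and 401 in WT LPS and 320.5 and 318 in KO LPS (4.93 ± 0.07, adjusted p = 3.59e-09), with all 4 LPS libraries close together. Among the falls, Phlda3 stood at 78.02 and 67.7 CPM in the WT and KO vehicle libraries, 12.9 and 14.02 in WT LPS and 29.3 and 29.2 in KO LPS (-1.71 ± 0.06, adjusted p = 1.23e-07). Acot1, an acyl-CoA thioesterase, stood at 97.5 and 71.5 CPM in the WT and KO vehicle libraries, 19.2 and 15.1 in WT LPS and 37.1 and 33.95 in KO LPS (-1.58 ± 0.09, adjusted p = 1.59e-06). Specc1 (-1.57 ± 0.07, adjusted p = 3.46e-07) and Zfp710 (-1.57 ± 0.08, adjusted p = 1.45e-06) fell as well. None of these falls brought a gene near 0.

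Split by mark, LPS against vehicle called more genes in Xist-marked members than in Y-marked ones. The Y-marked comparison sets KO LPS against WT vehicle, so genotype and LPS cannot be told apart in it. Its sums were also shallower, at 6379512 and 3030671 UMIs after LPS and 10482092 after vehicle. The Xist-marked KO sums held 7163687 and 5090411 UMIs after LPS and 14091121 after vehicle. The part of depth in the counts of called genes was not tested. KO LPS against KO vehicle among Xist-marked members raised 2846 genes (22.2%) and lowered 2494 (19.5%), 41.7% in all, with 1894 and 4135 under plain CPM scaling, where the median gene moved by -0.23. With the Xist-marked members of both genotypes' LPS libraries set against KO vehicle, 3068 rose (24.0%) and 2827 fell (22.1%), 46.0% in all. Y-marked KO LPS against Y-marked WT vehicle members raised 840 genes (6.56%) and lowered 685 (5.35%). Of the rises, 630 genes were called in both, which is 22.1% of the Xist-marked and 75% of the Y-marked calls, and 89 Xist-marked rises were Y-marked falls. Of the falls 346 were shared, 13.9% and 50.5%, and 43 had the opposite call. Over the 2846 Xist-marked rises the median log2 change was 0.83 in Xist-marked and 0.19 in Y-marked members, and over the 2494 falls it was -0.82 and -0.16. The genes of these medians were selected on the Xist-marked side. The difference between the responses passed the test in 975 genes (7.61%) upward and 1407 (11.0%) downward, with 2090 and 810 under plain CPM scaling. That difference carries the genotypes of the 2 vehicle libraries with it.

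Inside the KO LPS libraries, Y-marked members exceeded Xist-marked ones in 1997 genes (15.6%) and lay below them in 2385 (18.6%), 34.2% in all. Under plain CPM scaling the median gene moved by 0.22 and the split was 3739 and 1393. These sums come from the same captures and differ little in depth per cell, but RNA of other cells was not equal between them. The 8 epithelial markers summed to 1493 and 1690 CPM in Xist-marked against 582 and 124 in Y-marked KO LPS members. The 5 stromal markers summed to 82.2 and 53.6 against 10.8 and 19.8 CPM. The 7 monocyte markers went the other way, at 299 and 326 against 354 and 397 CPM. The source of this RNA was not tested. The 2 sums of a library were treated as separate in the fit.

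**Figure D2:**
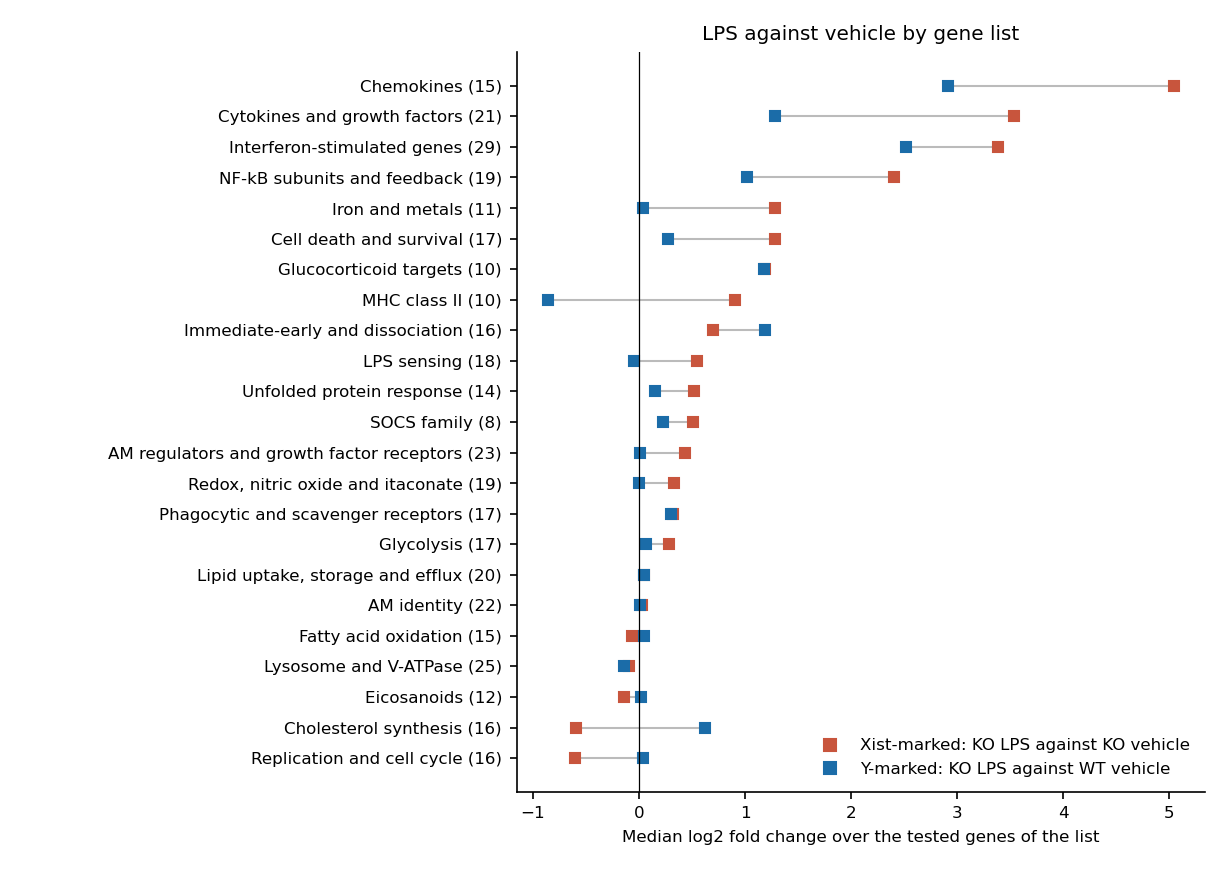
Median log2 fold change (x axis) over the tested genes of each list (y axis, number tested in brackets) for LPS against vehicle in Xist-marked members (KO LPS against KO vehicle) and in Y-marked members (KO LPS against WT vehicle). Chemokines, cytokines and NF-kB genes lie farther right for Xist-marked members, interferon-stimulated genes lie at 3.38 and 2.52, and cholesterol synthesis and MHC class II genes lie on opposite sides of 0.

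Genes that sense LPS were mostly higher with the Xist mark. Tlr2, a receptor for bacterial lipoproteins, stood at 246 CPM in Y-marked WT vehicle, 212 in Xist-marked KO vehicle, 781 and 744 in Xist-marked WT LPS, 739.7 and 685 in Xist-marked KO LPS and 167 and 156 in Y-marked KO LPS members. All Xist-marked LPS sums lay above both vehicle sums, and both Y-marked LPS sums lay below them. The change was 1.97 ± 0.10, adjusted p = 2.35e-07 in Xist-marked members and -0.61 ± 0.09, adjusted p = 0.00164 in Y-marked members, with Y against Xist inside the KO LPS libraries at -2.36 ± 0.08, adjusted p = 3.31e-08. Irf5, a transcription factor downstream of Myd88, rose from 37.6 to 82.8 and 73.1 CPM in Xist-marked KO members (1.28 ± 0.10, adjusted p = 7.55e-06). In Y-marked members it went from 37.1 to 28.999 and 26.1 CPM, a change that did not pass the test (-0.42 ± 0.12, adjusted p = 0.0541).

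Tlr4, the LPS receptor itself, rose modestly from 69.8 to 93.7 and 89.4 CPM in Xist-marked KO members (0.62 ± 0.11, adjusted p = 0.00159) and stood at 63.7 CPM in Y-marked WT vehicle and 53.1 and 39.6 in Y-marked KO LPS members, a change that did not pass the test (-0.42 ± 0.13, adjusted p = 0.0562). Traf6, the ubiquitin ligase between Myd88 and NF-kB, rose in Xist-marked members (1.83 ± 0.14, adjusted p = 4.70e-06) and was level in Y-marked ones (0.00 ± 0.17, adjusted p = 0.996). Cd14, the LPS co-receptor, rose with either mark, to 348 and 355 CPM in Xist-marked and 289 and 199.96 in Y-marked KO LPS members from 144 and 97.1. Ticam2, the adaptor of the interferon branch, fell from 32.9 to 7.12 and 7.86 CPM in Xist-marked KO members (-1.92 ± 0.18, adjusted p = 2.32e-05). Its values in Y-marked members were 27.6 CPM before and 21.9 and 20.1 after LPS. Of 18 tested sensing genes, 10 rose and 2 fell in Xist-marked members (median 0.54), 3 rose and 1 fell in Y-marked members (median -0.05), and 11 were lower and 2 higher in Y-marked than in Xist-marked KO LPS members (median -0.65). The medians over all genes in these comparisons were -0.01, 0.00 and 0.00. Of all tested genes 22.2% rose and 19.5% fell in Xist-marked KO members, and 6.56% and 5.35% in Y-marked ones. In Y-marked against Xist-marked KO LPS members 15.6% were higher and 18.6% lower. The list counts that follow stand against these shares.

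Of the 19 NF-kB subunits and feedback genes, 18 rose in Xist-marked KO members (median 2.40) and 11 in Y-marked ones (median 1.02), none fell, and 18 were lower in Y-marked than in Xist-marked KO LPS members (median -1.47). Nfkbia, the inhibitor that NF-kB itself induces, stood at 105 CPM in Y-marked WT vehicle, 103 in Xist-marked KO vehicle, 1325 and 1320.1 in Xist-marked WT LPS, 1369 and 1408 in Xist-marked KO LPS and 559 and 609 in Y-marked KO LPS members. Every LPS sum exceeded both vehicle sums, and the Y-marked LPS sums lay between vehicle and Xist-marked LPS (Y against Xist -1.47 ± 0.07, adjusted p = 2.92e-07). Tnfaip3, encoding the deubiquitinase A20, rose by 3.94 in Xist-marked and 1.88 in Y-marked members, and Zc3h12a, encoding the ribonuclease Regnase-1, by 3.51 and 1.11. All 4 changes had adjusted p of at most 8.81e-05. The subunit genes Relb and Nfkb1 passed the test in Xist-marked KO members and not in Y-marked ones. Relb went from 13.1 to 69.8 and 69.5 CPM in Xist-marked KO members (2.64 ± 0.16, adjusted p = 9.27e-07) and from 13.4 to 18.3 and 11.2 CPM in Y-marked members (0.23 ± 0.20, adjusted p = 0.532). Nfkb1 went from 134 to 234 and 241 CPM (1.06 ± 0.08, adjusted p = 5.04e-06) and from 122 to 126 and 114 CPM (-0.03 ± 0.08, adjusted p = 0.884).

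Chemokines rose steeply with the Xist mark and less with the Y mark. All 15 tested rose in Xist-marked KO members (median 5.04) and 11 rose in Y-marked ones (median 2.91), and 13 were lower in Y-marked than in Xist-marked KO LPS members (median -1.57). Cxcl3, a neutrophil chemokine that signals through Cxcr2, stood at 3.91 CPM in Y-marked WT vehicle, 1.56 in Xist-marked KO vehicle, 1315 and 1288 in Xist-marked WT LPS, 857 and 786 in Xist-marked KO LPS and 26.5 and 23.1 in Y-marked KO LPS members. The Xist-marked LPS sums did not overlap with any other, and the Y-marked LPS sums were nearer to vehicle than to them. Its rise was 9.25 ± 0.17, adjusted p = 1.39e-09 in Xist-marked and 2.67 ± 0.17, adjusted p = 6.65e-06 in Y-marked members, with Y against Xist at -5.25 ± 0.10, adjusted p = 1.67e-09. Thinned to 3000 UMIs, 3.43% and 2.72% of Y-marked KO LPS members held a Cxcl3 UMI, below the 5.68% and 3.55% of B cell droplets of the same libraries. How much of the Y-marked Cxcl3 was free RNA was not tested. Its chromosome 5 neighbour Cxcl2 stood at 34.7 CPM in Y-marked WT vehicle, 92.6 in Xist-marked KO vehicle, 2869 and 2788 in Xist-marked WT LPS, 3397 and 3575 in Xist-marked KO LPS and 943 and 833 in Y-marked KO LPS members, and the Y against Xist difference was -2.19 ± 0.07, adjusted p = 3.25e-08. For Cxcl1 the difference was -3.04 ± 0.14, adjusted p = 2.92e-07, from 150.5 and 160.3 CPM in Xist-marked and 25.9 and 15.2 in Y-marked KO LPS members, against 0.852 and 0.382 in the vehicle sums.

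Ccl9 split by mark into 1321 and 1246 CPM in Xist-marked and 141 and 137 in Y-marked KO LPS members (-3.42 ± 0.07, adjusted p = 2.56e-09), and the Xist-marked WT LPS sums stood at 1599 and 1603. The intermediate Ccl9 levels of the whole KO LPS libraries thus lie between 2 separate levels. Ccl3, which attracts monocytes and neutrophils, showed 525 and 471 against 123 and 81.2 CPM (-2.47 ± 0.15, adjusted p = 1.73e-06). Ccl4, its neighbour in the same cluster, stood at 269 and 323 against 241 and 194 CPM (-0.65 ± 0.12, adjusted p = 0.001805). Thinned B cell droplets of the KO LPS libraries held Ccl3 in 20.5% and 19.7%, between the 14.8% and 9.86% of Y-marked and the 48.7% and 42.9% of Xist-marked members. Cxcl10, an interferon-responsive chemokine, stood at 671 and 868 and 259 and 279 CPM (-1.73 ± 0.12, adjusted p = 3.48e-06).

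**Figure D3:**
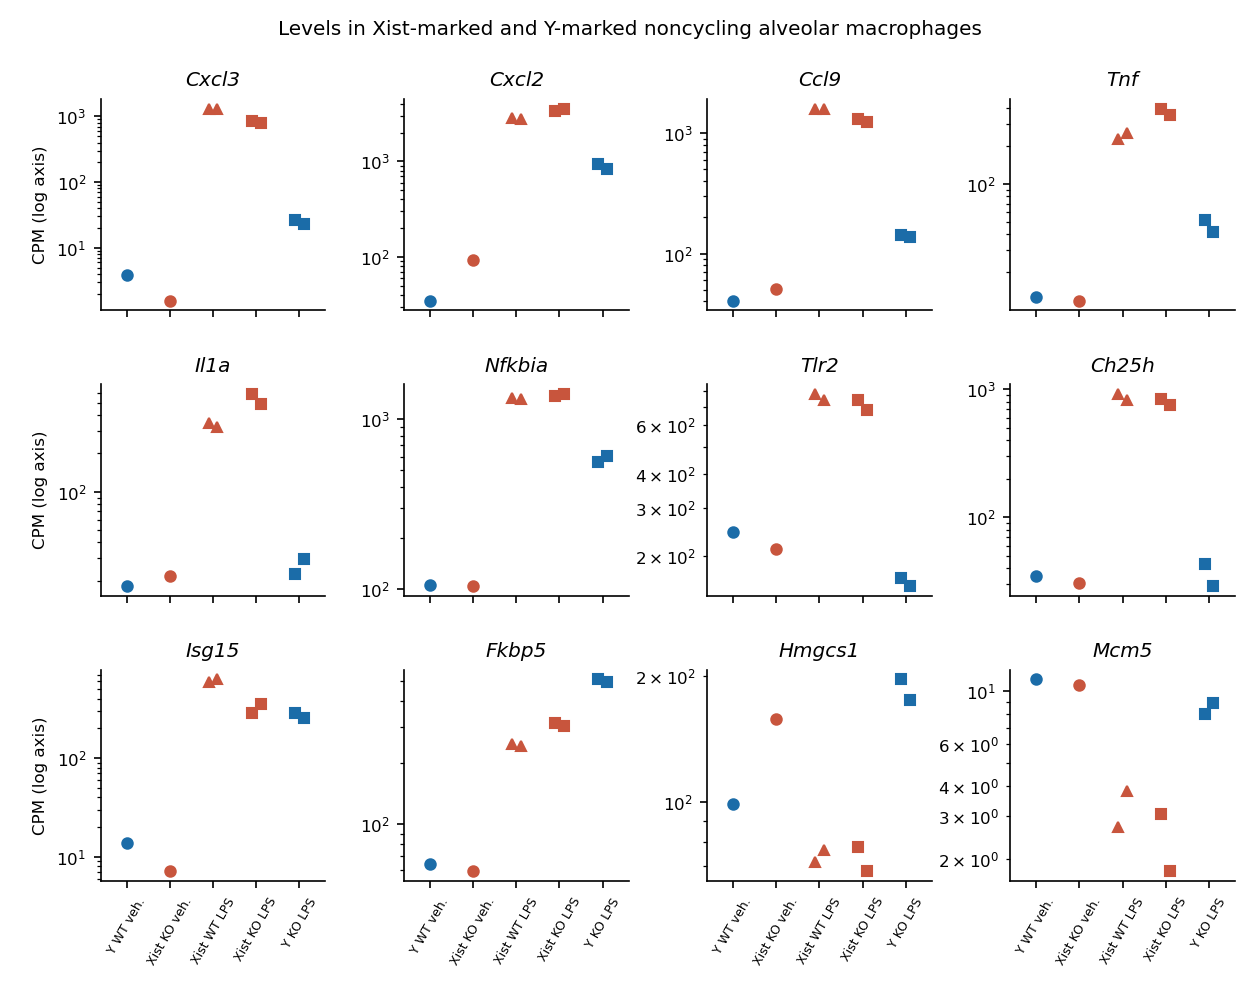
Levels (y axis, CPM, log axis) of 12 genes in the 8 sums (x axis), with 1 point per library, red for Xist-marked, blue for Y-marked, circles for vehicle, triangles for WT LPS and squares for KO LPS. Cxcl3, Ccl9, Tnf, Il1a, Tlr2 and Ch25h separate the KO LPS squares by colour, Isg15 does so little, Fkbp5 and Hmgcs1 have the blue squares above all other points, and Mcm5 has them above the red squares and below the vehicle circles.

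Cytokines followed the chemokines. Of 21 tested, 19 rose in Xist-marked KO members (median 3.53), 8 rose and 1 fell in Y-marked ones (median 1.28), and 16 were lower in Y-marked than in Xist-marked KO LPS members (median -1.44). Il1a, an alarm cytokine of the interleukin-1 family, stood at 18.1 CPM in Y-marked WT vehicle, 21.9 in Xist-marked KO vehicle, 346 and 322 in Xist-marked WT LPS, 587 and 492 in Xist-marked KO LPS and 22.4 and 29.7 in Y-marked KO LPS members. The Y-marked LPS sums lay close to vehicle, and the change there did not pass the test (0.46 ± 0.20, adjusted p = 0.169), whereas it was 4.85 ± 0.18, adjusted p = 3.97e-08 in Xist-marked members. Tnf stood at 12.7 CPM in Y-marked WT vehicle, 11.9 in Xist-marked KO vehicle, 229 and 252 in Xist-marked WT LPS, 396 and 352 in Xist-marked KO LPS and 51.6 and 41.6 in Y-marked KO LPS members. Its difference between marks was -3.20 ± 0.10, adjusted p = 3.31e-08, and its Y-marked rise of 1.90 ± 0.16 passed the test (adjusted p = 5.48e-05).

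Il1b, the secreted interleukin-1, stood at 964 and 1102 CPM in Xist-marked and 328 and 333 in Y-marked KO LPS members (-1.86 ± 0.08, adjusted p = 2.25e-07), from 53.4 and 43.9 in the vehicle sums. It was seen in 22.9% and 21.4% of thinned Y-marked members, below the 33.3% and 31.4% of B cell droplets, and in 59.6% and 58.5% of Xist-marked ones. Il1rn, its secreted antagonist, stood at 472 and 493 and 209 and 204 (-1.44 ± 0.07, adjusted p = 2.47e-07), from 152 and 160.1. Inhba, a subunit of activin A, was mostly seen in the Xist-marked LPS sums, at 25.9 and 29.6 CPM in WT and 19.8 and 19.3 in KO, against 1.57 and 2.31 in Y-marked KO LPS members (-3.64 ± 0.23, adjusted p = 1.91e-06). Il6 was low everywhere, between 0.191 CPM in Y-marked WT vehicle members and 10.6 and 13.2 in Xist-marked WT LPS members. Il18, an inflammasome substrate made at rest, did not pass the test in either mark, at 427 to 387 and 353 CPM in Xist-marked KO and 444 to 482 and 473 CPM in Y-marked members.

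Interferon-stimulated genes rose steeply with either mark. Of 29 tested, 27 rose in Xist-marked KO members (median 3.38), all 29 rose in Y-marked ones (median 2.52), and 16 were lower and 1 higher in Y-marked than in Xist-marked KO LPS members (median -0.51). Isg15, a ubiquitin-like modifier, stood at 13.6 CPM in Y-marked WT vehicle, 7.097 in Xist-marked KO vehicle, 591 and 629 in Xist-marked WT LPS, 287 and 351 in Xist-marked KO LPS and 284 and 253 in Y-marked KO LPS members. In KO LPS the sums of both marks lay close together without overlap, and WT LPS lay above both (Y against Xist -0.46 ± 0.10, adjusted p = 0.00449). Irf7, the factor that amplifies interferon production, rose by 4.07 and 4.04, with no call between marks (-0.30 ± 0.13, adjusted p = 0.114). Ifitm3, a membrane protein that blocks virus entry, gave 463 and 642 and 460.4 and 571 CPM (-0.32 ± 0.15, adjusted p = 0.137). Droplets of B cells held UMIs of Isg15, Rsad2 and Cxcl10 at shares at or above those of members in LPS libraries, and free RNA of these genes was not subtracted. Whether the B cells made these transcripts themselves was not tested.

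In the SOCS family 4 of 8 tested genes rose and 1 fell in Xist-marked KO members, 3 rose in Y-marked ones, and 4 were lower and 1 higher in Y-marked than in Xist-marked KO LPS members. Cish, induced by GM-CSF and other STAT5 signals, stood at 29.8 CPM in Y-marked WT vehicle, 36.1 in Xist-marked KO vehicle, 264 and 264 in Xist-marked WT LPS, 301 and 279 in Xist-marked KO LPS and 35.3 and 37.3 in Y-marked KO LPS members. Xist-marked LPS sums were far above all others, and the Y-marked change did not pass the test (0.27 ± 0.11, adjusted p = 0.153), with a difference between marks of -3.23 ± 0.08, adjusted p = 9.10e-09. Socs3, which restrains interleukin-6 family receptors, rose with either mark, by 5.37 ± 0.11 and 3.02 ± 0.12, and was lower in Y-marked KO LPS members (-2.49 ± 0.07, adjusted p = 3.25e-08). Socs1, the gene in the title of the series, stood at 2.48 CPM in Y-marked WT vehicle, 2.84 in Xist-marked KO vehicle, 25.7 and 33.1 in Xist-marked WT LPS, 15.6 and 27.5 in Xist-marked KO LPS and 14.1 and 12.2 in Y-marked KO LPS members. It rose in both (3.11 ± 0.35 and 2.42 ± 0.41, adjusted p = 7.25e-05 and 0.00407), and its values in Xist-marked KO LPS overlapped with Xist-marked WT LPS (-0.47 ± 0.22, adjusted p = 0.198). B cell droplets of the same libraries held Socs1 at shares at or above those of members. Whether Socs1 UMIs were the cells' own RNA was tested neither in members nor in B cell droplets.

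Genes of lipid handling moved both ways. Ch25h stood at 34.7 CPM in Y-marked WT vehicle, 30.6 in Xist-marked KO vehicle, 919 and 827 in Xist-marked WT LPS, 841 and 757 in Xist-marked KO LPS and 43.6 and 29.04 in Y-marked KO LPS members. The Y-marked LPS sums straddled the vehicle values (0.11 ± 0.18, adjusted p = 0.772), whereas every Xist-marked LPS sum was more than 20-fold above it, and the difference between marks was -4.63 ± 0.15, adjusted p = 3.26e-08. Fabp4, a fatty acid carrier of mature alveolar macrophages, rose with either mark, to 899 and 876 CPM from 248 and to 577 and 558 from 200.3. Msr1, the scavenger receptor A, reached 68.5 and 52.6 CPM in Xist-marked and 26.6 and 30.03 in Y-marked KO LPS members. Abcg1, which exports cholesterol and is needed for surfactant clearance, fell from 1426 to 669.6 and 639 CPM (-0.90 ± 0.08, adjusted p = 9.44e-06) and from 1607 to 1189.7 and 1172 CPM (-0.45 ± 0.08, adjusted p = 0.00378). Cidec, a lipid droplet protein, fell from 291 to 109 and 114 CPM (-1.16 ± 0.09, adjusted p = 4.23e-06). The lipoprotein lipase gene Lpl did not pass the test in Xist-marked members (-0.11 ± 0.08, adjusted p = 0.3097) and fell from 2482 to 1272 and 1405 CPM in Y-marked ones (-0.90 ± 0.08, adjusted p = 6.93e-05). Over the list of 20, 7 rose and 6 fell in Xist-marked members, 3 rose and 7 fell in Y-marked ones, and both medians were 0.05, the first of which turned to -0.18 under plain CPM scaling.

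Cholesterol synthesis went in opposite directions. Of 16 tested genes, 2 rose and 11 fell in Xist-marked KO members (median -0.60), 11 rose and none fell in Y-marked ones (median 0.62), and 10 were higher and 2 lower in Y-marked than in Xist-marked KO LPS members (median 0.57). Hmgcs1, which makes the HMG-CoA that feeds the pathway, stood at 98.6 CPM in Y-marked WT vehicle, 158 in Xist-marked KO vehicle, 71.6 and 76.5 in Xist-marked WT LPS, 77.8 and 67.97 in Xist-marked KO LPS and 197 and 175 in Y-marked KO LPS members. Within KO the Xist-marked LPS sums lay below vehicle (-0.88 ± 0.09, adjusted p = 5.06e-05), and the Y-marked LPS sums lay above every other sum (1.13 ± 0.08, adjusted p = 5.96e-06 against Xist-marked). Fdft1, which makes squalene, stood at 13.8 and 17.3 CPM in Xist-marked and 37.2 and 32.01 in Y-marked KO LPS members (0.97 ± 0.14, adjusted p = 5.25e-04). The 2 vehicle sums themselves differed, with Hmgcs1 at 98.6 CPM in Y-marked WT and 158 in Xist-marked KO and Fdft1 at 23.2 and 36.3. Y-marked KO LPS levels therefore lay above Y-marked WT vehicle and, for Fdft1, around the Xist-marked KO vehicle level.

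Identity genes did not move as a block. Of 22 tested that the rule did not use, 7 rose and 6 fell in Xist-marked KO members (median 0.03, or -0.20 under plain CPM scaling) and 4 rose and 6 fell in Y-marked ones (median 0.01). Siglecf passed in neither (-0.10 ± 0.10, adjusted p = 0.481 and -0.09 ± 0.11, adjusted p = 0.65004), at 154 and 131 CPM in Xist-marked and 155 and 139.9 in Y-marked KO LPS members. Car4, a carbonic anhydrase, stood at 297 CPM in Y-marked WT vehicle, 365 in Xist-marked KO vehicle, 2442 and 2234 in Xist-marked WT LPS, 1603 and 1326 in Xist-marked KO LPS and 686 and 608 in Y-marked KO LPS members. All LPS sums lay above vehicle, with WT highest and Y-marked KO lowest (-1.40 ± 0.10, adjusted p = 4.84e-06). Krt19 fell from 542 to 95.1 and 89.8 CPM (-2.32 ± 0.10, adjusted p = 1.10e-07) and from 595 to 237 and 233 CPM (-1.35 ± 0.10, adjusted p = 1.94e-05). Mrc1, the mannose receptor, rose by 0.71 and 0.69 with no call between marks (-0.07 ± 0.06, adjusted p = 0.422), and Chil3, the abundant chitinase-like protein, rose in Y-marked members alone of these 2 comparisons, from 8382 to 14848 and 14201 CPM (0.79 ± 0.08, adjusted p = 1.40e-04).

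Among transcription factors and growth factor receptors of these cells, 14 of 23 rose and 5 fell in Xist-marked KO members and 5 rose and 3 fell in Y-marked ones. Pparg passed the test in neither, at 154 to 121 and 118 CPM in Xist-marked KO (-0.13 ± 0.08, adjusted p = 0.217) and 155 to 187 and 165 CPM in Y-marked members (0.19 ± 0.08, adjusted p = 0.194). Bhlhe41, a repressor needed for self-renewal of alveolar macrophages, stood at 154 CPM in Y-marked WT vehicle, 138 in Xist-marked KO vehicle, 53.8 and 58.3 in Xist-marked WT LPS, 40.2 and 43.8 in Xist-marked KO LPS and 138 and 112 in Y-marked KO LPS members. Every Xist-marked LPS sum was below every other sum, and the Y-marked change did not pass (-0.29 ± 0.10, adjusted p = 0.109) while the difference between marks did (1.38 ± 0.10, adjusted p = 5.58e-06). Cebpa fell from 244 to 66.7 and 57.8 CPM (-1.73 ± 0.10, adjusted p = 1.06e-06) and, less, from 199.9 to 151 and 124 CPM (-0.53 ± 0.10, adjusted p = 0.00916). Klf4 fell from 331 to 123 and 109 CPM (-1.28 ± 0.09, adjusted p = 2.09e-06) and stood at 257 CPM in Y-marked WT vehicle and 313 and 291 in Y-marked KO LPS members. The common β chain of the GM-CSF receptor, Csf2rb, rose from 355 to 744 and 708 CPM (1.26 ± 0.09, adjusted p = 4.27e-06) and stood at 347 and then 387 and 347 CPM in Y-marked members (0.08 ± 0.09, adjusted p = 0.662). Maf, a repressor of self-renewal genes, rose with either mark, from 2.55 to 21.2 and 23.97 CPM and from 4.198 to 18.2 and 23.1 CPM.

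Receptors for particles and dying cells were mixed, with 9 of 17 up and 5 down in Xist-marked KO members and 8 up and 1 down in Y-marked ones. Mertk, a receptor for apoptotic cells, stood at 178 CPM in Y-marked WT vehicle, 222 in Xist-marked KO vehicle, 91.5 and 94.5 in Xist-marked WT LPS, 107 and 110.2 in Xist-marked KO LPS and 232 and 214 in Y-marked KO LPS members. The Xist-marked LPS sums were the low ones (-0.81 ± 0.07, adjusted p = 1.23e-05), and the Y-marked LPS sums exceeded their vehicle sum (0.32 ± 0.07, adjusted p = 0.0188). Cd200r1, an inhibitory receptor for epithelial Cd200, was lowest in the Xist-marked KO LPS sums at 31.7 and 32.4 CPM, against 85.3 and 67.3 in Y-marked ones (1.06 ± 0.11, adjusted p = 5.36e-05). Fcgr2b, the inhibitory Fc receptor, rose with either mark to 327 and 294 and 221 and 203 CPM. In the lysosome list of 25, 3 rose and 8 fell in Xist-marked KO members and 1 rose and 8 fell in Y-marked ones. The all-gene shares that rose and fell were 22.2% and 19.5% in Xist-marked KO members and 6.56% and 5.35% in Y-marked ones. Tfeb, the master regulator of lysosome genes, fell from 47.8 to 13.4 and 14.5 CPM (-1.55 ± 0.12, adjusted p = 5.56e-06) and from 50.2 to 32.9 and 35.6 CPM (-0.57 ± 0.11, adjusted p = 0.010001). The protease gene Ctsl rose from 218 to 346 and 336 CPM (0.87 ± 0.08, adjusted p = 1.73e-05), and the abundant Ctsd fell from 4207 to 2769 and 2808 CPM (-0.37 ± 0.06, adjusted p = 0.00122).

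MHC class II and co-stimulation genes lay on opposite sides of 0. Of 10 tested, 5 rose in Xist-marked KO members (median 0.90), 1 rose and 6 fell in Y-marked ones (median -0.86), and 8 were lower in Y-marked than in Xist-marked KO LPS members (median -1.15). Cd80, a ligand of CD28, stood at 17.4 CPM in Y-marked WT vehicle, 15.2 in Xist-marked KO vehicle, 41.2 and 38.3 in Xist-marked WT LPS, 46.1 and 34.4 in Xist-marked KO LPS and 11.8 and 9.57 in Y-marked KO LPS members. The Xist-marked LPS sums lay above both vehicle sums and the Y-marked ones below both (-2.11 ± 0.18, adjusted p = 1.56e-05). Cd40 rose with either mark, by 4.84 ± 0.25 and 2.49 ± 0.28. Cd74, the invariant chain, stood at 667 CPM in Y-marked WT vehicle but 332 in Xist-marked KO vehicle members, and 549 and 579 and 360.4 and 153 in the KO LPS sums. Cd74 is abundant in B cells and dendritic cells. The 5 B cell markers summed to 36.8 CPM in Y-marked WT vehicle and 32.4 in Xist-marked KO vehicle members. In KO LPS they summed to 17.9 and 12.2 with the Xist mark and 9.41 and 4.95 with the Y mark. The 6 dendritic cell markers summed to 28.9 and 17.4 CPM after vehicle, then 12.4 and 23.0 and 14.7 and 5.94. Both marker sums were highest in Y-marked WT vehicle members. The part of free RNA in Cd74 and the other genes of this list was not tested.

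Several genes of sugar and redox metabolism were higher with the Xist mark. Slc2a1, the glucose transporter GLUT1, stood at 7.82 CPM in Y-marked WT vehicle, 7.17 in Xist-marked KO vehicle, 89.1 and 87.1 in Xist-marked WT LPS, 78.5 and 83.7 in Xist-marked KO LPS and 10.97 and 7.92 in Y-marked KO LPS members. Its Y-marked change did not pass (0.33 ± 0.19, adjusted p = 0.324), and the difference between marks was -3.25 ± 0.12, adjusted p = 7.48e-08. Hk2, a hexokinase, showed 109 and 126 against 35.9 and 30.4 CPM (-2.01 ± 0.10, adjusted p = 5.89e-07). Of 17 glycolysis genes 8 rose in Xist-marked KO members and 4 rose and 2 fell in Y-marked ones. The all-gene shares that rose and fell were 22.2% and 19.5% with the Xist mark and 6.56% and 5.35% with the Y mark. Cpt1a, which admits fatty acids to mitochondria, fell from 202 to 88.6 and 80.5 CPM (-1.02 ± 0.09, adjusted p = 9.72e-06) and stood at 199 and then 213 and 201 CPM in Y-marked members (0.05 ± 0.09, adjusted p = 0.787).

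Slc7a11, the cystine importer, reached 151 and 173 CPM in Xist-marked and 45.1 and 35.97 in Y-marked KO LPS members (-2.18 ± 0.10, adjusted p = 2.92e-07), and Txnrd1, thioredoxin reductase, 379 and 364 and 121 and 125 (-1.81 ± 0.07, adjusted p = 7.50e-08). Sod2, the mitochondrial superoxide dismutase, rose with either mark, from 129 to 615 and 618 CPM and from 132 to 296 and 328 CPM. Acod1, which makes itaconate, rose from 0.568 to 45.6 and 71.1 CPM and from 1.05 to 44.05 and 53.5 CPM with no call between marks (-0.48 ± 0.21, adjusted p = 0.0971). Nos2, the inducible nitric oxide synthase, had 0 UMIs in both vehicle sums (which allows up to 0.286 and 0.213 CPM) and 17.97 and 17.7 CPM in Xist-marked WT LPS, 1.12 and 8.45 in Xist-marked KO LPS and 1.72 and 1.32 in Y-marked KO LPS members. Whole libraries held 15 and 14 Nos2 UMIs after vehicle, 18100 and 14462 in WT LPS and 4231 and 2315 in KO LPS, so its members' UMIs moved with those of other cells in the library and their source was not tested.

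Of 11 iron and metal genes 6 rose and 1 fell in Xist-marked KO members, 3 rose and 1 fell in Y-marked ones, and 4 were lower and none higher in Y-marked KO LPS members (median -0.11). Mt2, a metallothionein, stood at 112 CPM in Y-marked WT vehicle, 105 in Xist-marked KO vehicle, 461 and 466 in Xist-marked WT LPS, 626 and 688 in Xist-marked KO LPS and 118 and 104 in Y-marked KO LPS members. The Y-marked LPS sums straddled the vehicle values (-0.01 ± 0.10, adjusted p = 0.981), and the difference between marks was -2.78 ± 0.08, adjusted p = 3.25e-08. Fth1, ferritin heavy chain, rose with either mark, to 30815 and 29066 and 18085 and 17497 CPM from 14395 and 13003. Of 12 eicosanoid genes 2 rose and 4 fell in Xist-marked KO members, 2 rose and 1 fell in Y-marked ones, and 3 were higher and 1 lower in Y-marked KO LPS members (median 0.09). Of all tested genes 22.2% rose and 19.5% fell in Xist-marked KO members, and 6.56% and 5.35% in Y-marked ones. In Y-marked against Xist-marked KO LPS members 15.6% were higher and 18.6% lower. With 12 genes, several of these counts lie near those shares. Hpgd, which inactivates prostaglandins, fell from 27.5 to 6.002 and 5.11 CPM in Xist-marked KO members (-2.06 ± 0.35, adjusted p = 0.00103) and stood at 21.9 and 44.2 CPM in Y-marked KO LPS members (2.25 ± 0.33, adjusted p = 6.13e-04). Nlrp3, an inflammasome sensor, reached 208 and 219 and 67.1 and 57.4 CPM (-1.97 ± 0.08, adjusted p = 7.83e-08), and Casp4, the murine caspase-11 that binds LPS in the cytosol, 97.2 and 118 and 40.6 and 37.6 (-1.66 ± 0.10, adjusted p = 1.68e-06). Of 17 cell death and survival genes 12 rose and 1 fell in Xist-marked KO members, 8 rose in Y-marked ones, and 11 were lower and 1 higher in Y-marked KO LPS members.

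Of 10 glucocorticoid targets 8 rose and 1 fell in Xist-marked KO members and 7 rose in Y-marked ones (medians 1.19 and 1.18). In Y-marked against Xist-marked KO LPS members 3 were higher and 4 lower (median 0.17), and the difference in response passed the test for 1 upward and 2 downward. Fkbp5, a chaperone of the glucocorticoid receptor, stood at 64.1 CPM in Y-marked WT vehicle, 58.8 in Xist-marked KO vehicle, 246 and 241 in Xist-marked WT LPS, 312 and 303 in Xist-marked KO LPS and 510.1 and 493 in Y-marked KO LPS members. The Y-marked LPS sums were the highest and did not overlap with any other (0.49 ± 0.06, adjusted p = 2.85e-04 against Xist-marked). Tsc22d3, the anti-inflammatory GILZ, stood at 78.5 CPM in Y-marked WT vehicle, 168 in Xist-marked KO vehicle, 95.4 and 99.1 in Xist-marked WT LPS, 54.02 and 49.9 in Xist-marked KO LPS and 218 and 199 in Y-marked KO LPS members. It fell in Xist-marked KO members (-1.46 ± 0.08, adjusted p = 6.33e-07) and rose in Y-marked ones (1.41 ± 0.09, adjusted p = 5.97e-06), and its 2 vehicle sums also differed. Zbtb16 was low but highest in the Y-marked LPS sums, at 10.8 and 16.5 CPM against at most 2.95 in the other 6 (2.12 ± 0.34, adjusted p = 9.13e-04). These are the 3 higher ones. Klf9, a transcription factor, was among the 4 lower ones (-0.38 ± 0.06, adjusted p = 0.00128), as was the cell-cycle inhibitor gene Cdkn1a (-0.69 ± 0.07, adjusted p = 6.97e-05).

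Immediate-early genes, which also respond to tissue digestion, rose in 10 of 16 cases in Xist-marked KO members and 11 of 16 in Y-marked ones (medians 0.70 and 1.19), with 1 fall in each. In Y-marked against Xist-marked KO LPS members 2 were higher and 6 lower (median -0.17), and the difference in response passed the test for 5 upward and 5 downward. Egr1 rose by 3.83 ± 0.11 and 3.82 ± 0.12. Fos, a subunit of AP-1, did not pass in Xist-marked KO members (0.20 ± 0.12, adjusted p = 0.208) and rose from 516 to 1864 and 1496 CPM in Y-marked ones (1.70 ± 0.13, adjusted p = 2.26e-05). Replication genes fell in 5 of 16 cases and rose in 3 in Xist-marked KO members (median -0.61), against no fall and 2 rises in Y-marked ones (median 0.03). Of all tested genes 19.5% fell and 22.2% rose in Xist-marked KO members, and 5.35% and 6.56% in Y-marked ones. Mcm5, a helicase subunit, went from 10.6 to 3.07 and 1.77 CPM (-1.85 ± 0.32, adjusted p = 0.00112) and from 11.2 to 7.99 and 8.91 CPM (-0.43 ± 0.29, adjusted p = 0.408). The rule caps 3 cell-cycle genes and so bounds how far this list could move.

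Among the genes highest in Y-marked against Xist-marked KO LPS members, Cxcr4, the receptor for CXCL12, stood at 39.97 CPM in Y-marked WT vehicle, 72.5 in Xist-marked KO vehicle, 9.48 and 8.65 in Xist-marked WT LPS, 6.002 and 4.91 in Xist-marked KO LPS and 63.2 and 52.5 in Y-marked KO LPS members. The Xist-marked LPS sums were the low ones and the Y-marked sums lay within the vehicle range (3.18 ± 0.15, adjusted p = 3.83e-07). Dhrs3, a retinaldehyde reductase, stood at 243 CPM in Y-marked WT vehicle, 301 in Xist-marked KO vehicle, 38.998 and 33.7 in Xist-marked WT LPS, 36.99 and 37.9 in Xist-marked KO LPS and 233 and 209.5 in Y-marked KO LPS members (2.35 ± 0.09, adjusted p = 9.01e-08), with the Y-marked LPS sums just under both vehicle sums. Tifab (2.56 ± 0.18), Kctd12b (2.29 ± 0.11), Il16 (2.15 ± 0.15), Amz1 (2.07 ± 0.12), Slc43a2 (1.93 ± 0.09), Pwwp3a (1.81 ± 0.10) and Phlda3 (1.79 ± 0.12) followed.

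Ap1s2, an adaptor subunit of clathrin transport, was high in Y-marked LPS members alone of these 8 sums. It stood at 93.7 CPM in Y-marked WT vehicle, 107 in Xist-marked KO vehicle, 96.7 and 87.3 in Xist-marked WT LPS, 93.1 and 95.3 in Xist-marked KO LPS and 352 and 344 in Y-marked KO LPS members. The other 6 sums lay within 87.3 to 107 CPM, so the difference of 1.67 ± 0.07, adjusted p = 1.70e-07 came from the Y-marked LPS sums. In the other direction Hivep3, a large zinc finger protein that binds kappaB-like sequences, stood at 84.9 CPM in Y-marked WT vehicle, 90.7 in Xist-marked KO vehicle, 277 and 278 in Xist-marked WT LPS, 318 and 291 in Xist-marked KO LPS and 44.05 and 34.98 in Y-marked KO LPS members (-3.13 ± 0.10, adjusted p = 3.25e-08).

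Saa3, a serum amyloid, stood at 0.382 CPM in Y-marked WT vehicle, 0.355 in Xist-marked KO vehicle, 1416 and 1649 in Xist-marked WT LPS, 605 and 636 in Xist-marked KO LPS and 574 and 407 in Y-marked KO LPS members (-0.55 ± 0.13, adjusted p = 0.00823 for Y against Xist). Lcn2, the siderophore-binding lipocalin, gave 719 and 1056 and 777 and 714 CPM, and Hp, haptoglobin, 163 and 196 and 223 and 239.6 (0.15 ± 0.14, adjusted p = 0.462). Neutrophil RNA moved with these values. The 10 neutrophil markers outside the rule, of which none was at 0 throughout, summed to 83.1 and 86.9 CPM in vehicle and 1285 to 1969 in LPS libraries, and to 879 and 1464 in Xist-marked against 1075 and 906 in Y-marked KO LPS members. The 7 monocyte markers rose from 109 to 162 CPM in vehicle to 456 to 683 in LPS libraries. Neutrophil barcodes made up 3.99% and 4.47% of filtered barcodes after vehicle and 35.6% to 44.2% after LPS. The part of free or engulfed RNA in these genes was not tested.

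Single members varied within each mark. Each was thinned to 3000 UMIs, which left out 2 to 20 shallower members per mark and library. The 15 chemokines in the files made up a median of 3.67 UMIs per 1000 in both vehicle groups, 17.3 and 15.7 in Xist-marked WT LPS, 14 and 13 in Xist-marked KO LPS and 6.33 and 5.33 in Y-marked KO LPS members. As the vehicle medians show, this sum includes chemokine RNA present before LPS, so it does not measure the induced members alone. The 10th to 90th percentiles ran from 7.33 to 23 and 6.5 to 22.3 in the Xist-marked KO LPS members and from 3 to 12.7 and 2.33 to 11.2 in the Y-marked ones, so the distributions overlapped while their medians differed by more than 2-fold. Members with both marks lay between, at 11 and 9.33. NF-kB genes had medians of 0.667 in both vehicle groups, 3.33 in both WT LPS, 4 and 3.67 in Xist-marked KO LPS and 1.67 and 1.5 in Y-marked KO LPS members. Interferon-stimulated genes had low medians of 0.333 to 1 with long upper tails, in which the 90th percentile was 9.07 and 11.3 in WT LPS, 4.67 and 7.33 in Xist-marked KO LPS and 4.80 and 4.90 in Y-marked KO LPS members, against 1.33 and 1 in vehicle.

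**Figure D4:**
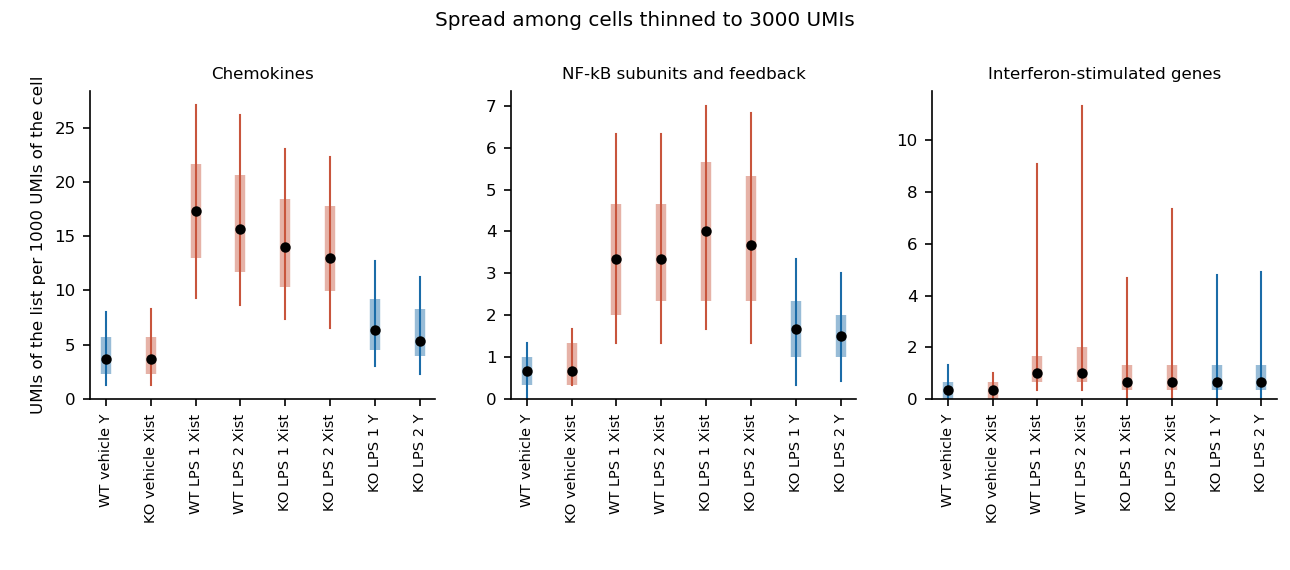
UMIs of 3 gene lists per 1000 UMIs of a member (y axes) after thinning to 3000 UMIs, by library and mark (x axis). Dots are medians, thick bars the 25th to 75th and thin lines the 10th to 90th percentiles over cells, and the chemokine medians are 14 and 13 in Xist-marked and 6.33 and 5.33 in Y-marked KO LPS members.

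Shares of thinned members with at least 1 UMI were also compared. Ch25h was seen in 7.69% of Y-marked WT vehicle and 6.77% of Xist-marked KO vehicle members, 70.4% and 69.3% in Xist-marked WT LPS, 70.9% and 69.3% in Xist-marked KO LPS, and 9.42% and 7.48% in Y-marked KO LPS members. B cell droplets, thinned to the same depth, held it in 0 to 2.82%, which is below every one of these shares. Tlr2 was seen in 85.4% and 83% of Xist-marked and 41.8% and 38.1% of Y-marked KO LPS members, with 51.5% and 43.1% in the vehicle groups and 3.28% to 10.3% in B cell droplets. Ap1s2 ran the other way, in 61.7% and 61.6% of Y-marked KO LPS members against 23% to 29.6% in every other group. Cxcl3 was seen in 42.6% and 41.1% of Xist-marked KO LPS members. The share in Y-marked ones is given above with that of B cell droplets.

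The genotypes were compared under LPS, which in all members mixes the marks on the KO side. Over all members 1460 genes were higher (11.0%) and 1872 lower (14.2%) in KO, or 2432 and 1111 under plain CPM scaling. Restricted to Xist-marked members, 614 were higher (4.80%) and 588 lower (4.59%), 1202 in all (9.39%), and this count fell to 247 without the first and 371 without the second WT LPS library. Chemokines illustrate the step between the 2 comparisons, with 12 lower and none higher in KO over all members (median -0.66), and 5 lower and 2 higher among Xist-marked members (median -0.30). For NF-kB genes the counts went from 13 lower and none higher to 2 lower and 4 higher (medians -0.45 and -0.06). Cxcl3 was -1.68 ± 0.07 over all and -0.66 ± 0.07 among Xist-marked members. Il1a was higher in KO among Xist-marked members (0.69 ± 0.11, adjusted p = 0.00505), as was Tnf (0.64 ± 0.09, adjusted p = 0.00294). Pwwp3a was 1.12 ± 0.07 over all members and -0.11 ± 0.11 among Xist-marked ones, and Dhrs3 was 1.66 ± 0.09 and 0.04 ± 0.10.

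Interferon-stimulated genes kept the lower KO values within the Xist mark, where 12 of 29 were lower and none higher (median -0.45). Isg15 stood at 591 and 629 CPM in Xist-marked WT LPS and 287 and 351 in Xist-marked KO LPS members (-0.93 ± 0.09, adjusted p = 9.88e-04), and Irf7 at 191 and 206 and 80.7 and 104 (-1.11 ± 0.12, adjusted p = 0.00119). Ms4a4c (-1.53 ± 0.09), Hp (-1.52 ± 0.14), Ccl2 (-1.43 ± 0.19), Ly6c2 (-1.43 ± 0.09), Slfn4 (-1.39 ± 0.17), Saa3 (-1.30 ± 0.13), Mmp8 (-1.30 ± 0.16), Phf11b (-1.24 ± 0.09) and Ccl5 (-1.21 ± 0.13) were lower in KO. Several of these are monocyte or neutrophil genes. The 7 monocyte markers summed to 631 and 693 CPM in Xist-marked WT LPS against 299 and 326 in Xist-marked KO LPS members. Free RNA was not subtracted from any of these genes, the interferon-stimulated ones included, and its part in their lower KO values was not tested. Fcgr1, the high-affinity Fc receptor, was lower too, at 27.8 and 34.97 against 73.4 and 70.1 CPM (-1.21 ± 0.12, adjusted p = 0.00117).

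Higher in Xist-marked KO LPS members were immediate-early genes, 7 of 16 with none lower (median 0.39), among them Egr1 (0.99 ± 0.07, adjusted p = 2.24e-04). Cirbp, the cold-inducible RNA-binding protein, stood at 20.7 CPM in Y-marked WT vehicle, 17.2 in Xist-marked KO vehicle, 23.1 and 21.1 in Xist-marked WT LPS, 51.2 and 54.2 in Xist-marked KO LPS and 35.3 and 32.7 in Y-marked KO LPS members (1.25 ± 0.09, adjusted p = 2.24e-04). Both Xist-marked KO LPS sums exceeded every other sum. Surfactant genes led by size, with Sftpa1 at 234 and 232 CPM against 33.2 and 39.9 (2.68 ± 0.30) and Sftpc at 998 and 1194 against 207 and 200.3 (2.43 ± 0.62). These are products of alveolar epithelial cells, and the 8 epithelial markers, which include them, summed to 124 to 4584 CPM over the 8 sums. Scgb1a1, the club cell secretoglobin, stood at 29.5 and 40.03 CPM in the WT and KO vehicle libraries, 59.998 and 4161 in WT LPS and 56.1 and 56.4 in KO LPS over all members, so its fall of -5.32 ± 1.45 rested on the second WT LPS library. Once the deepest 8% of barcodes were left out, the calls for Akap12, Iigp1 and Lyve1 reversed, and Adgrf5 turned to -0.35 without passing the test (adjusted p = 0.251).

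The difference in LPS response between genotypes, tested over all members, passed in 323 genes upward (2.44%) and 350 downward (2.65%), or 546 and 283 under plain CPM scaling. Leaving out the second WT LPS library raised the count from 673 (5.09%) to 1379. The vehicle libraries differ in sex marks and the KO LPS libraries mix both marks, so genotype and sex cannot be told apart in it. Eif2s3x, an X-linked gene with a Y-linked partner, was among the 8 smallest p-values, at 65.7 and 125 CPM in the WT and KO vehicle libraries, 133 and 129 in WT LPS and 103 and 98.6 in KO LPS (-1.39 ± 0.10, adjusted p = 6.89e-04). The WT vehicle library, which held Y-marked or unmarked members, was the low one. Cxcl2 (-1.84 ± 0.13), Osm, a cytokine of the interleukin-6 family (-1.28 ± 0.10), Pde4b, which breaks down cyclic AMP (-1.37 ± 0.10), and Cfb, complement factor B (-1.62 ± 0.12), rose less in KO. Slc43a2, Syne2 and Fam189a2 had the more positive response in KO. Syne2 and Fam189a2 fell in both genotypes, and less so in KO.

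The vehicle libraries, 1 a side, were compared as ratios with exact 95% Poisson intervals that cover counting error only. Of 8373 genes with at least 100 UMIs in either library 31 were over 2-fold higher and 38 over 2-fold lower in KO. Smyd1, a lysine methyltransferase gene of muscle and immune cells, stood at 23.0 CPM (20.5 to 25.6) in WT and 0.913 CPM (0.486 to 1.56) in KO. Cxcl9, an interferon-γ target, stood at 1.75 CPM (1.12 to 2.61) in WT and 20.3 CPM (18 to 22.8) in KO. Most others with the largest ratios belong to epithelial and stromal cells, such as Sftpc at 16.7 and 429.8 CPM and Mgp at 71.0 and 16.1 CPM. Sex, genotype and library cannot be told apart here.

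Cycling alveolar macrophages, 954 barcodes that met the rule but for 2 or more cell-cycle UMIs, showed few differences in LPS response from noncycling ones. With library as a block, the response differed in 63 genes upward (0.510%) and 20 downward (0.162%) of 12362. The medians of all genes were 0.08 under TMM scaling and -0.06 under plain CPM scaling, where the counts were 13 and 24. The count of 83 in all (0.671%) became 12 without the first WT LPS library and 238 without the first KO LPS library. Lmnb1, a nuclear lamin, stood at 13.6, 14.7, 43.3, 41.1, 44.4 and 43.1 CPM in noncycling members and 201, 205, 156, 172, 172 and 179 in cycling cells (WT vehicle, KO vehicle, WT LPS, KO LPS), a difference in response of 2.00 ± 0.10, adjusted p = 1.44e-06. It rose in noncycling members and fell slightly in cycling cells. Ckap2l, of the mitotic spindle, likewise went from 1.02 and 1.76 to 4.64, 5.93, 9.41 and 9.83 CPM in noncycling members and from 135 and 108 to 85.8, 90.002, 94.6 and 84.02 in cycling cells (2.94 ± 0.36, adjusted p = 0.00297). Cell-cycle genes related to the rule's own cut are selected on and these values are a description. Ccl9 rose to 1134, 1055, 512 and 587 CPM in cycling cells, below 1613, 1595, 713 and 749.7 in noncycling ones (1.26 ± 0.10, adjusted p = 8.69e-05), and identity genes differed in 3 of 22 cases.

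Interstitial macrophages, 349 barcodes with over 20 C1q UMIs and under 5 marker UMIs, responded differently in 444 genes upward (3.54%) and 673 downward (5.36%) of 12548 (8.90% in all), or 786 and 419 under plain CPM scaling. A positive value means a more positive response in noncycling alveolar macrophages. Ccl5, a T cell chemokine, stood at 210.4 and 104 CPM after vehicle and 842, 774, 461 and 379 after LPS in alveolar members, and at 523 and 355 and 17815, 18569, 12526 and 16999 in interstitial cells (-3.55 ± 0.26, adjusted p = 2.95e-07). The alveolar rise was under 10-fold and the interstitial one more than 20-fold. Il1rn went from 161 and 152 to 613, 634, 379 and 388 CPM and from 4.84 and 11.9 to 1499, 1342, 904 and 894 (-5.57 ± 0.34, adjusted p = 3.39e-08), and Cd274, which encodes PD-L1, from 141 and 127 to 259.95, 258, 198 and 203 and from 4.84 and 2.98 to 357, 307, 238 and 244 (-5.75 ± 0.43, adjusted p = 2.95e-07). In both, the alveolar level before LPS was far above the interstitial one.

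Egr1 rose from 27.6 and 49.7 to 298, 312, 519.8 and 494 CPM in alveolar members and went from 494 and 949 to 166, 134, 353 and 335 in interstitial cells (4.72 ± 0.22, adjusted p = 1.09e-09). By list, 17 of 29 interferon-stimulated genes responded less in alveolar members and none more (median -2.27), and 9 of 17 cell death genes less and 1 more. In the other direction 6 of 10 MHC class II genes (median 1.18) and 9 of 16 immediate-early genes (median 1.75) had the more positive alveolar response, with none and 1 lower. The all-gene median was -0.06. The interstitial sums rest on 32 to 88 barcodes per library.

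Members were 17.2% of filtered barcodes in the WT vehicle library (exact 95% interval 16.4 to 17.9), 15.5% in the KO vehicle library (14.7 to 16.3), 9.07% and 8.34% in WT LPS and 9.79% and 10.6% in KO LPS. All 4 LPS libraries lay below both vehicle libraries, with a log2 difference of -0.79 (exact two-sided permutation p = 0.133, the smallest that 2 against 4 libraries allow). Over barcodes other than neutrophils the shares were 17.9% and 16.2% after vehicle and 16.1%, 14.9%, 15.4% and 16.5% after LPS, which overlap (log2 difference -0.12, exact p = 0.267). Barcodes of at least 3000 UMIs were also thinned to that depth, with at least 2 marker UMIs required. Their shares were 36.1% and 25.9% after vehicle and 11.4%, 11.6%, 13.5% and 16.9% after LPS (-1.21, exact permutation p = 0.133). A marker sum of at least 10 UMIs gave -0.76 (exact permutation p = 0.133).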

How the data were processed

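The deposited files hold raw UMI counts per gene and barcode for 6 libraries, which the authors produced by Cell Ranger 6.1.0 on mm10, per the file headers and the submitters' processing notes, which also name Seurat 4.1.0 and R 4.1.3. No source used here gives the annotation release. Members, gene lists and added comparisons were chosen with earlier results of these data known.

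Counts were summed per library over members and tested with edgeR 4.0.16 in R 4.3.3 (quasi-likelihood, TMM scaling, low-count filter by group, 4 groups, 2 residual degrees of freedom), with Benjamini-Hochberg adjustment at 0.05 over all genes tested. The 8 sums by mark were fitted likewise in 5 groups, a comparison chosen after seeing the data. Classes were compared with library as a block. DESeq2 1.42.0, other scalings, no filter, leaving out each LPS library, a marker sum of at least 10 UMIs, leaving out the 8% of members with the most UMIs and a replicate block were the alternatives. The main procedures were tested on simulated counts. Summaries used Python 3.11.15, numpy 2.4.6, pandas 2.3.3 and scipy 1.17.1.

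Genes were named by rule. For LPS against vehicle and KO against WT these were the 10 largest changes each way with an adjusted p under 0.05, a level of 50 CPM or more on the higher side and no overlap of libraries. For LPS rises members also had to hold at least 2 times the UMIs per B cell droplet. For differences in response the 8 smallest p were taken, and every list gave its 4 members of smallest p at most. Further list members were named after their values were seen. Some genes that these rules name are not reported here. Clec7a, Cxcl11 and Mx1 were not among the features used here. No doublets or free RNA were removed, so UMIs from other cells stay in the sums. Intervals and limits cover counting error only. No sample-level replicate exists for vehicle, so the spread rests on pairs of LPS libraries.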

Additional observations from a re-analysis of the deposited data

Results flagged for a closer look

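Differences between groups under the same contrast were picked out here, each from a test of the difference itself. They were tested with edgeR's quasi-likelihood test, and values are log2 differences in response ± standard error.

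Between Y-marked and Xist-marked members the LPS response differed in 2382 genes. The 2 vehicle libraries that enter this difference also differ in genotype.

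Between genotypes, over all members, it differed in 673 genes. The vehicle libraries differ in sex marks and the KO LPS libraries mix both marks, so genotype and sex cannot be told apart here. Of the 8 with the smallest p, 5 had the lower response in KO, namely Cxcl2 (-1.84 ± 0.13), Cfb (-1.62 ± 0.12), Eif2s3x (-1.39 ± 0.10), Pde4b (-1.37 ± 0.10) and Osm (-1.28 ± 0.10). The other 3 were Fam189a2 (2.03 ± 0.16), Slc43a2 (1.33 ± 0.11) and Syne2 (1.15 ± 0.09). Fam189a2 stood at 55.3 and 42.6 CPM in the WT and KO vehicle libraries, 5.02 and 5.13 in WT LPS and 16.7 and 17.4 in KO LPS, Syne2, which links the nucleus to the cytoskeleton, at 216 and 179.5 CPM in the WT and KO vehicle libraries, 67.98 and 70.2 in WT LPS and 132 and 138 in KO LPS, and Pde4b at 27.6 and 47.2 CPM in the WT and KO vehicle libraries, 122 and 122 in WT LPS and 85.2 and 85.2 in KO LPS. Cfb stood at 31.3 and 53.1 CPM in the WT and KO vehicle libraries, 176 and 167 in WT LPS and 98.7 and 102 in KO LPS. Among Xist-marked members alone, the Cxcl2 level after LPS was higher in KO than in WT, as given above.

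Between noncycling and cycling alveolar macrophages it differed in 83 genes, and the 8 with the smallest p all had the more positive response in noncycling members. Ckap2l (2.94 ± 0.36), Lmnb1 (2.00 ± 0.10), Slfn9 (1.85 ± 0.19), Bub1b (1.55 ± 0.14), Emp1 (1.33 ± 0.14), Ccl9 (1.26 ± 0.10), Cdkn2d (1.25 ± 0.15) and Tuba1c (0.82 ± 0.11) made up this set. The classes were cut on cell-cycle UMIs, so genes of this set related to the cut are selected on. Their values are a description. Bub1b, of the mitotic checkpoint, stood at 32.98, 33.01, 64.7, 67.3, 52.9 and 56.6 CPM in noncycling members (WT vehicle, KO vehicle, WT LPS, KO LPS) and 171, 159, 106, 108, 114 and 127 in cycling cells. Slfn9 stood at 8.77, 7.02, 14.9, 20.3, 17.7 and 21.5 and 111, 123, 88.1, 78.6, 77.8 and 87.1.

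Between noncycling alveolar and interstitial macrophages it differed in 1117 genes. The interstitial vehicle levels of Cd274 and Il1rn rest on very few UMIs, as given above. Cd274 (-5.75 ± 0.43), Il1rn (-5.57 ± 0.34), Mt2 (-4.71 ± 0.29), Tnfaip2 (-4.05 ± 0.26) and Ccl5 (-3.55 ± 0.26) responded less in alveolar members, and Egr1 (4.72 ± 0.22) and Socs3 (3.09 ± 0.22) had the more positive alveolar response. Mt2 stood at 33.9 and 26.9 CPM after vehicle and 3092, 3080.1, 2141 and 2102 after LPS in interstitial cells, and Tnfaip2, a TNF-induced gene, at 33.9 and 29.8 and 613, 522, 415 and 453, against 557 and 569.5 and 792, 728, 551 and 567 in alveolar members. Socs3 stood at 266 and 469 and 1288, 1247, 805 and 994 CPM in interstitial cells and 9.51 and 11.5 and 377, 405, 252 and 279 in alveolar members.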

How the results depend on the processing

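Of the values of single named genes under the alternatives, 2162 kept their direction and side of the threshold, 50 kept the direction but lost the call, and 12 reversed. With DESeq2 the counts of called genes were 3752 for LPS against vehicle averaged over genotypes, 3213 in WT, 1600 in KO, 1289 for KO against WT under LPS, 290 for the difference between genotypes, 3529 for LPS against vehicle in Xist-marked members of both genotypes, 3138 for the KO Xist-marked response, 457 for KO against WT in Xist-marked members, 2708 for Y-marked against Xist-marked, 927 for the Y-marked response and 1175 for the difference between marks. All are below the edgeR counts, and the cause was not tested.

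Without the low-count filter the difference between genotypes gave 1566 calls, noncycling against cycling 476 and KO against WT in Xist-marked members 2249. Leaving out the 8% of members with the most UMIs gave 1226 for the difference between genotypes and 303 for noncycling against cycling, where RLE scaling gave 31 and plain CPM scaling 37. In KO against WT among Xist-marked members that step turned Adgrf5 to -0.35, Akap12 to -0.86, Iigp1 to -0.50 and Lyve1 to -1.82. Taking Xist-marked members alone, KO against WT under LPS gave 1202 calls, with Pwwp3a at -0.11 and Vsir at -0.0049, and in LPS against vehicle set Ddx3y, Eif2s3y, Kdm5d and Uty to 0.0 by construction and Xist to -0.0745. With a marker sum of at least 10 UMIs Kdm5d stood at 0.60. Leaving out 1 LPS library at a time gave 655 to 1379 calls for the difference between genotypes, 12 to 238 for noncycling against cycling and 247 to 1445 for KO against WT in Xist-marked members. The lone library left in a group was assumed to vary like the other groups.

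Replicate numbers were shared by the LPS groups, but same-numbered libraries did not deviate together (r = 0.039 over 13220 genes), so they are not treated as pairs. With a replicate block the difference between genotypes gave 1652 calls and KO against WT in Xist-marked members 1933. Planned fits within a single mark that needed every library were not run, because the WT vehicle library held no Xist-marked and the WT LPS libraries no Y-marked members. Where only 1 vehicle library per genotype exists, its own variation was not measured, and the vehicle libraries had the lowest depth per member.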
